A study of Mus musculus with 9 samples.

Results

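The genes of the eukaryotic translation initiation factors (eIFs) were examined in mouse bone marrow-derived macrophages (BMDMs) exposed to lipopolysaccharide (LPS) and interferon-γ (IFN-γ), with or without annexin A5 (AnxA5). Members were chosen by name alone: every gene whose symbol began with Eif1 to Eif6, leaving out the 4 Eif2ak genes, which encode kinases of eIF2, and 7 pseudogenes of the name. This gave 52 of the 55335 genes in the deposited table. Of these, 48 were tested, because they reached 1 FPKM (a level in fragments, per transcript length and per library total) in at least 3 of the 9 libraries. The 4 untested members were Eif4e1b and Eif2c5, listed at 0 in every library, Eif4ebp3, between 0.0448 and 0.572 FPKM, and Eif3j2, which was above 0 in 4 libraries.

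RNA-seq covered 3 groups of 3 libraries, all from wild-type cells of male C57BL/6 mice aged 4 to 6 weeks that had been matured for 5 days with 20 ng/mL M-CSF and were collected 6 h after the treatment began. Control cells received culture medium alone. Model cells received LPS at 1 µg/mL together with IFN-γ at 30 ng/mL, and M+AnxA5 cells received the same stimulus together with 2 µg/mL recombinant human AnxA5. The sample labels call the latter group Treat, and it was taken as the M+AnxA5 group of the study. Its dose of AnxA5 was taken from the study's scheme of the RNA-seq design. No source states that the 3 libraries of a group came from separate mice or cultures, so the spread behind every p-value is that among these samples and may be technical in part or whole.

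Initiation is the step of protein synthesis that places a ribosome on the start codon of an mRNA. eIF4F, made of the cap-binding protein eIF4E, the scaffold eIF4G and the helicase eIF4A, binds the capped end of the mRNA, eIF3 recruits the small ribosomal subunit, and eIF2 delivers the initiator methionyl-tRNA. In macrophages that meet microbial products this step is a known point of control, through phosphorylation of eIF2 and through the eIF4E-binding proteins (4E-BPs), which are targets of the kinase mTORC1.

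The libraries were similar in depth, estimated at 26.6 M to 36.7 M fragments, and their FPKM summed to between 291594 and 322529. All 8 stimulus genes checked were higher in Model than in Control, with summed levels of 14.5 to 17.7 FPKM in Control, 9345 to 9725 FPKM in Model and 9236 to 9390 FPKM in M+AnxA5. The 8 macrophage markers were present in every library, at sums of 13812 to 14875 FPKM in Control, 7664 to 8587 FPKM in Model and 6992 to 7847 FPKM in M+AnxA5. Lyz2 made up most of these sums (a mean of 12129 FPKM in Control and 6388 FPKM in Model), and the markers went both ways in Model, with Adgre1 and Mertk higher (0.88 and 1.56) and the other 6 lower. Markers of T and NK cells summed to at most 2.43 FPKM and those of B cells, nearly all of it Ighm and Cd79b, to 9.89 to 11.1 FPKM in Control and 2.05 to 2.37 FPKM in Model, while neutrophil markers summed to 253 to 367 FPKM and stromal markers to 62.1 to 158 FPKM. Dendritic cell markers summed to 0.364 to 0.596 FPKM in Control, 27.3 to 29.7 FPKM in Model and 24.8 to 25.2 FPKM in M+AnxA5. The part of these markers in the results was not tested. In bulk RNA, fewer cells of a type and less RNA per cell cannot be told apart. Fragments of ribosomal RNA took the largest share of the summed FPKM in the library numbered 2 of each group, up to 7.47% in Control.

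Initiation factor genes were well expressed in these cells. The median of their mean levels was 16.8 FPKM over the 48 tested members against 5.07 FPKM over all 11657 genes tested, and 89.6% of members against 50.4% of all genes averaged at least 5 FPKM. Their summed level was 1464 to 1504 FPKM in Control, 1169 to 1185 FPKM in Model and 1135 to 1169 FPKM in M+AnxA5, which was 0.459 to 0.486%, 0.391 to 0.406% and 0.377 to 0.398% of all FPKM in the library. The 3 Control libraries stood above the 6 stimulated libraries on both measures.

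The comparison of Model with Control asks how LPS and IFN-γ changed these genes. Stimulation raised Eif4ebp1 and Eif6 and lowered 33 of the 48 tested members, with 13 not called; a call needed a fold change over 1.2 on the log2(FPKM + 1) scale and an adjusted p under 0.05 (limma, Benjamini-Hochberg over all genes tested). Among all genes 76.8% were called, 16.5% higher and 60.3% lower. The members' median log2 fold change was -0.44, against -0.45 for all genes, and 22 of the 48 members lay below the all-gene median. Of all genes that averaged 5 FPKM or more, 23.2% were higher and 51.9% lower, beside 2 and 28 of the 43 such members. The libraries of both groups did not overlap for 41 of the 48 members and for 83.8% of all genes. The median was thus near that of all genes, while 2 of 48 members against 16.5% of all genes were higher. Under quantile normalization the median was -0.30 over the members and -0.10 over all genes. With TPM scaling the 2 medians were -0.36 and -0.38, and without 2 ribosomal RNA genes -0.39 and -0.41. With upper-quartile scaling they were -0.20 and -0.24.

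**Figure D1:**
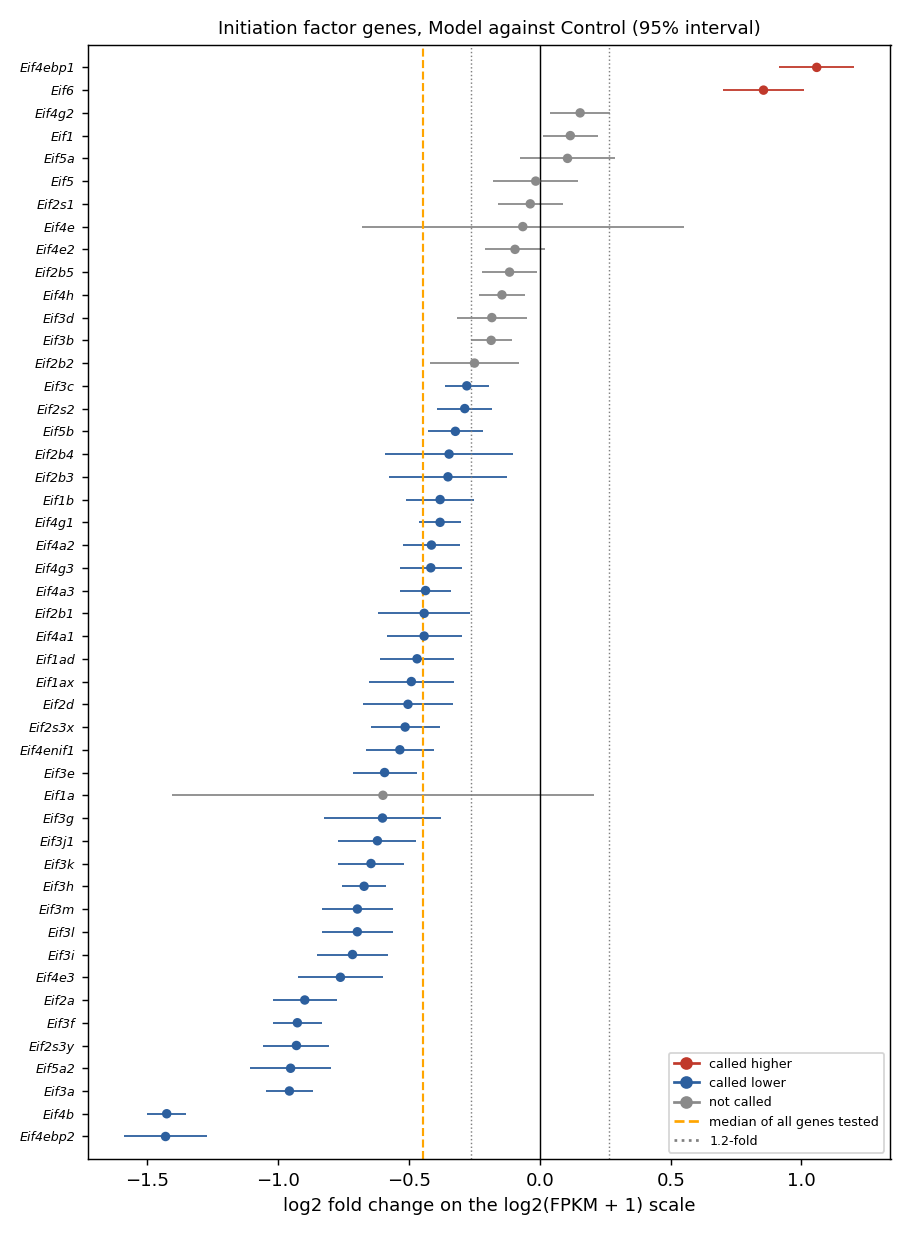
Log2 fold change of each of the 48 tested initiation factor genes in Model against Control on the log2(FPKM + 1) scale, with its 95% interval (3 libraries a group). Eif4ebp1 and Eif6 stand alone on the right at 1.06 and 0.86, Eif4b and Eif4ebp2 lie at -1.43, and the dashed line marks the median of all genes tested at -0.45.

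Many calls of modest size depended on the scaling. Under 4 other scalings of the same values the median of all genes moved from -0.45 to -0.38 (TPM), -0.41 (TPM without 2 ribosomal RNA genes), -0.24 (upper quartile) and -0.10 (quantile normalization). Eif4ebp1 and Eif6 were called higher and 17 members were called lower under all 5 scalings, 9 members were called under none, and the other 20 were called under some of them only. The 17 were Eif4ebp2, Eif4b, Eif4e3, Eif2a, Eif2s3x, Eif2s3y, Eif5a2 and 10 of the 13 tested eIF3 subunits.

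Eif4ebp1 and Eif4ebp2 moved in opposite directions. They encode 4E-BP1 and 4E-BP2, small proteins that hold eIF4E away from eIF4G until mTORC1 phosphorylates them. Eif4ebp1 (ENSMUSG00000031490, mm10 chr8:27260329-27276674, plus strand) was at 14.2, 12.7 and 13.7 FPKM in Control, 28.0, 28.8 and 31.0 FPKM in Model and 31.3, 27.8 and 28.8 FPKM in M+AnxA5. All 6 stimulated libraries lay above all Control libraries, and the log2 fold change in Model was 1.06 ± 0.06 (SE, adjusted p = 3.9e-07). Eif4ebp2 (ENSMUSG00000020091, chr10:61428491-61452661, minus strand) stood at 29.4, 26.2 and 28.4 FPKM in Control, 9.31, 10 and 9.96 FPKM in Model and 8.86, 8.34 and 9.97 FPKM in M+AnxA5. Its level in Control was 2.87 times that in Model, with a log2 fold change of -1.43 ± 0.07 (adjusted p = 1.1e-07). The third member of the family, Eif4ebp3, averaged 0.443 ± 0.102 FPKM in Control (SD, n = 3), and 62.8% of the 100-base windows of its transcripts also occur in an overlapping read-through gene, so its level is uncertain.

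As a share of the summed FPKM of the 3 genes, Eif4ebp1 made up 32.2 ± 0.109% in Control, 74.3 ± 0.789% in Model and 75.8 ± 2.25% in M+AnxA5 (SD, n = 3). The summed level of the 4 inhibitor genes, which adds Eif4enif1 (4E-T, an eIF4E partner that takes it to the nucleus and to processing bodies), was 48.2 ± 2.36 FPKM in Control and 43.3 ± 2.03 FPKM in Model. A share within a library does not depend on the scaling factor of that library. Eif4enif1 itself fell by 0.54 (adjusted p = 2.0e-05) but was not called under quantile normalization.

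**Figure D2:**
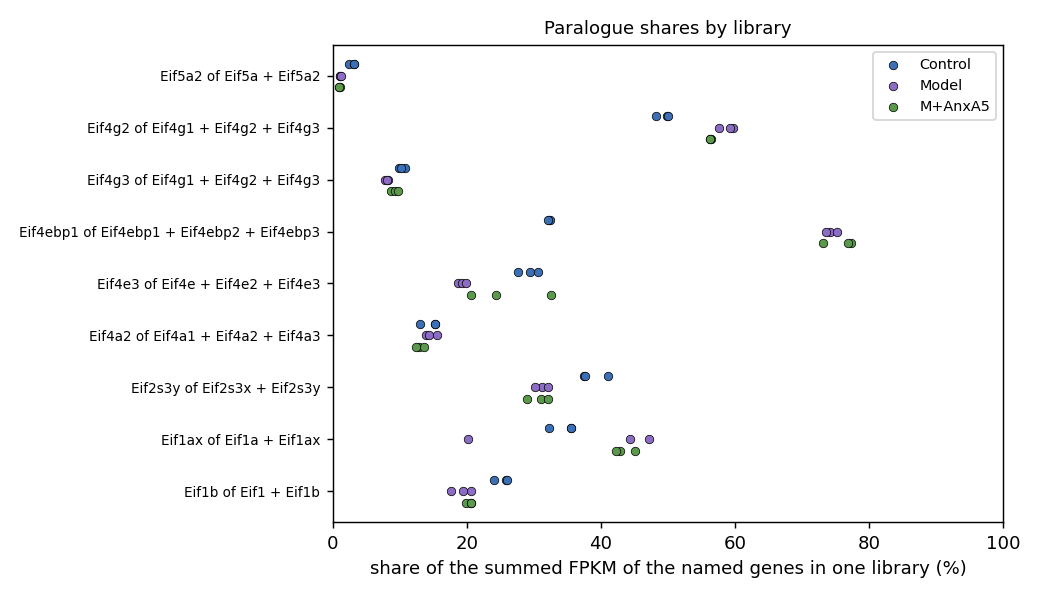
Share of a paralogue in the summed FPKM of its family in each library, in percent, with 1 point per library and 3 libraries a group. The points for Eif4ebp1 move from 32.1 to 32.3% in Control to 73.6 to 75.1% in Model, while the share of Eif4a2 overlaps between Control and Model. For Eif4a2, Model (13.9 to 15.5%) and M+AnxA5 (12.4 to 13.6%) do not overlap. The levels of 24.8% of all genes tested also do not overlap in that comparison. Eif4a2 itself is not called there, and its share is uncertain because the level of Eif4a1 is.

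Of the genes of the cap-binding proteins, Eif4e and Eif4e2 were not called and Eif4e3 was called lower. Eif4e, which encodes the main cap-binding factor, was at 13.3, 14.8 and 14.7 FPKM in Control and 13.4, 14.4 and 13.0 FPKM in Model, so the groups overlapped and the log2 fold change was -0.07 (95% interval -0.68 to 0.55). That interval was wide because of 1 library: Eif4e was at 5.21 FPKM in M+AnxA5 replicate 1 and at 12.9 and 13.1 FPKM in the other two of that group, and all 9 libraries share an estimate of the spread. Eif4e2 (4EHP), a cap-binding protein that represses rather than promotes initiation, averaged 8.90 ± 0.507 FPKM in Control and 8.26 ± 0.162 FPKM in Model and was not called. Eif4e3, a divergent paralogue, was at 9.43, 9.07 and 10.2 FPKM in Control and 5.02, 5.41 and 5.26 FPKM in Model. It fell by 0.76 ± 0.07 (adjusted p = 8.3e-06), and its share of the 3 cap-binding genes went from 29.2 ± 1.53% to 19.3 ± 0.624%.

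Among the helicase and its cofactors, Eif4b changed most. eIF4B stimulates the helicase eIF4A. Its gene (ENSMUSG00000058655, chr15:102073773-102097173, plus strand) was at 81.0, 79.0 and 81.7 FPKM in Control, 29.5, 29.6 and 28.9 FPKM in Model and 29.1, 29.0 and 29.2 FPKM in M+AnxA5. The log2 fold change in Model was -1.43 ± 0.03, with the lowest adjusted p of all members (9.5e-10). Eif4h, a smaller protein with the same task, went from 39.3 ± 0.760 to 35.5 ± 0.695 FPKM and its difference of -0.14 stayed within 1.2-fold. Their sum was 119.9 ± 2.14 FPKM in Control and 64.8 ± 0.339 FPKM in Model.

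The helicase genes shifted together. Eif4a1 was at 118, 106 and 102 FPKM in Control and 82.7, 81.0 and 74.7 FPKM in Model, Eif4a2 at 22.3, 24.5 and 24.0 FPKM and 17.2, 17.4 and 17.7 FPKM, and Eif4a3, a helicase of the exon junction complex, at 32.4, 30.5 and 31.1 FPKM and 23.8, 22.8 and 22.2 FPKM. They fell by 0.44, 0.41 and 0.44, and none of the 3 was called with upper-quartile scaling. Eif4a2 kept 14.5 ± 1.34% of their summed FPKM in Control and 14.6 ± 0.819% in Model. Of the 100-base windows of Eif4a1, 22.6% occur in another gene, most of them in the pseudogene Eif4a-ps4. That pseudogene was listed at 95.7 ± 4.71 FPKM in Control and 75.4 ± 1.32 FPKM in Model. The level of Eif4a1, and with it the share of Eif4a2, is thus uncertain.

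Of the scaffolds, Eif4g1 and Eif4g3 fell and Eif4g2 did not. eIF4G1 and eIF4G3 bridge eIF4E and eIF3, whereas the protein of Eif4g2 (DAP5) lacks the eIF4E-binding part and serves cap-independent initiation. Eif4g1 was at 56.8, 56.9 and 55.6 FPKM in Control and 42.9, 44.2 and 42.3 FPKM in Model (-0.38 ± 0.04, adjusted p = 8.0e-06), and Eif4g3 at 14.7, 13.9 and 14.2 FPKM and 10.9, 10.4 and 10 FPKM (-0.42 ± 0.05, adjusted p = 5.8e-05). Eif4g2 was at 66.4, 70.6 and 69.7 FPKM in Control and 79.8, 79.5 and 71.2 FPKM in Model. All Model libraries of Eif4g2 were above all Control libraries, but the difference of 0.15 (adjusted p = 0.019) was under 1.2-fold. With upper-quartile scaling Eif4g2 was called higher (0.41) and neither Eif4g1 (-0.13) nor Eif4g3 (-0.18) was called. Eif4g2 held 49.3 ± 1.04% of the summed FPKM of the 3 scaffolds in Control and 58.9 ± 1.10% in Model.

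**Figure D3:**
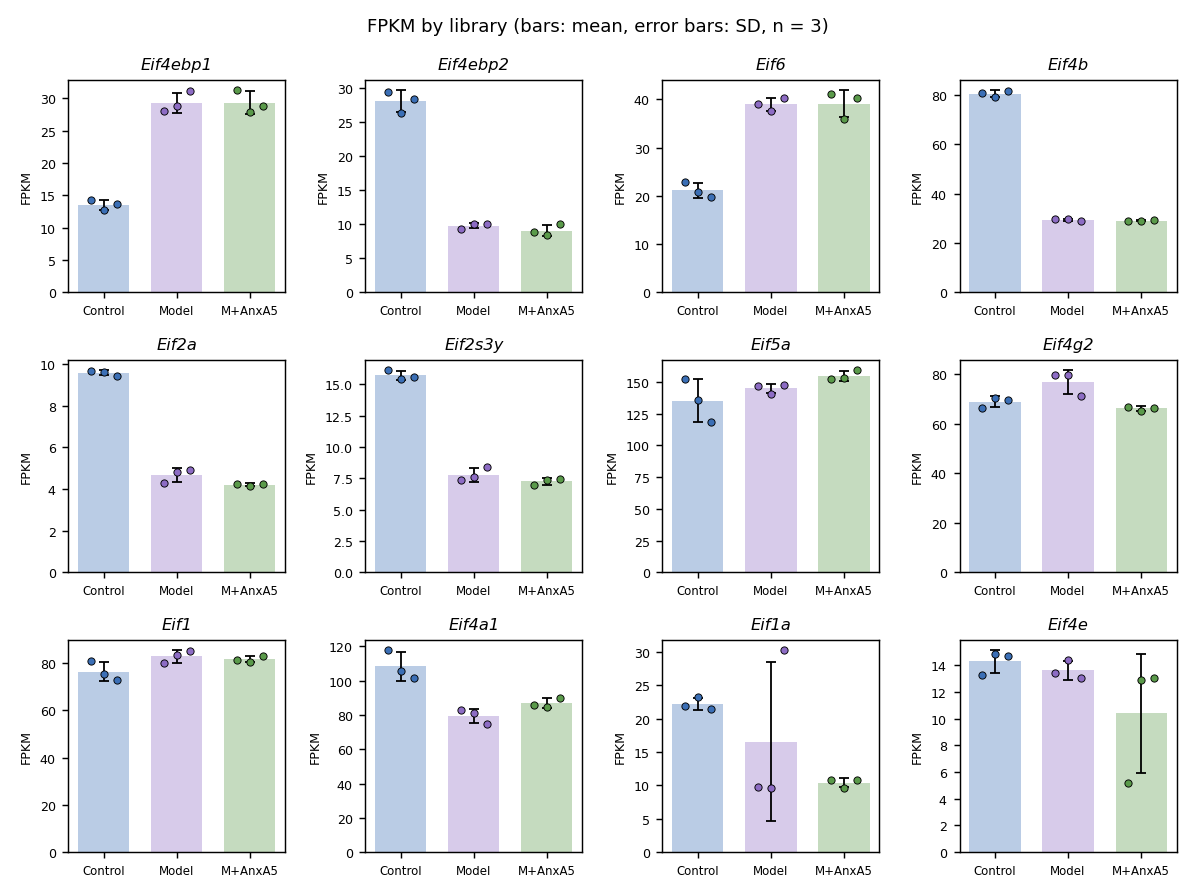
FPKM of 12 initiation factor genes in the 9 libraries (points), with the group mean (bar) and SD (error bar, n = 3). Eif4ebp1 and Eif6 are higher and Eif4ebp2, Eif4b, Eif2a and Eif2s3y lower in every Model and M+AnxA5 library than in any Control library; 1 Model library of Eif1a (30.3 FPKM) and 1 M+AnxA5 library of Eif4e (5.21 FPKM) stand apart from the rest of their group.

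Most eIF3 subunit genes were lower in Model. eIF3 is the largest initiation factor, built on a core of subunits with PCI or MPN domains. Its summed level was 501 ± 4.96 FPKM in Control and 334 ± 1.92 FPKM in Model, and 11 of the 13 subunits were called lower, beside 60.3% of all genes, at a median of -0.65 beside -0.45 for all genes. Eif3a, the largest subunit, was at 58.8, 60.9 and 61.5 FPKM in Control, 30.5, 31.2 and 30.2 FPKM in Model and 28.9, 27.1 and 28.6 FPKM in M+AnxA5 (-0.96 ± 0.04, adjusted p = 3.9e-08). Eif3f, 1 of the MPN subunits, was at 54.7, 50.9 and 53.4 FPKM in Control and 27.0, 28.2 and 26.9 FPKM in Model (-0.93 ± 0.04, adjusted p = 5.4e-08). Eif3i, which belongs to the module of the b, g and i subunits, was at 14.9, 16 and 15.4 FPKM in Control and 8.99, 9.15 and 8.91 FPKM in Model (-0.72 ± 0.06, adjusted p = 4.1e-06). Eif3k was at 28.9, 26.9 and 29.5 FPKM in Control and 18, 16.9 and 18.6 FPKM in Model (-0.65 ± 0.06, adjusted p = 4.5e-06). Control and Model libraries did not overlap for any of the 13, as for 83.8% of all genes.

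Within eIF3, Eif3b, Eif3d and Eif3c stood apart. Model levels were 87.7% of Control for Eif3b, the scaffold of the b-g-i module, 87.4% for Eif3d, the subunit that can bind the cap itself, and 82.1% for Eif3c. The other 10 subunits lay between 50.7% (Eif3a) and 64.5% (Eif3g). Eif3e, Eif3h, Eif3j1, Eif3l and Eif3m were at 64.2%, 62.3%, 61.7%, 60.4% and 60.2% of Control, and Eif3k, Eif3i and Eif3f at 62.7%, 58.3% and 51.7%. Those 10 were called lower under all 5 scalings. Eif3d was called under none of the 5, Eif3b only under quantile normalization (-0.34), and Eif3c was called with the deposited values (-0.28) and under quantile normalization (-0.44) but not under the other 3. Eif3j2 shares 84.0% of its 100-base windows with Eif3j1 and was listed at 0 in 5 of the 9 libraries and at up to 6.39 FPKM in another. Eif3j2 thus cannot be read apart from Eif3j1. Of the windows of Eif3j1, 33.4% occur in Eif3j2, so the level of Eif3j1 is uncertain too.

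**Figure D4:**
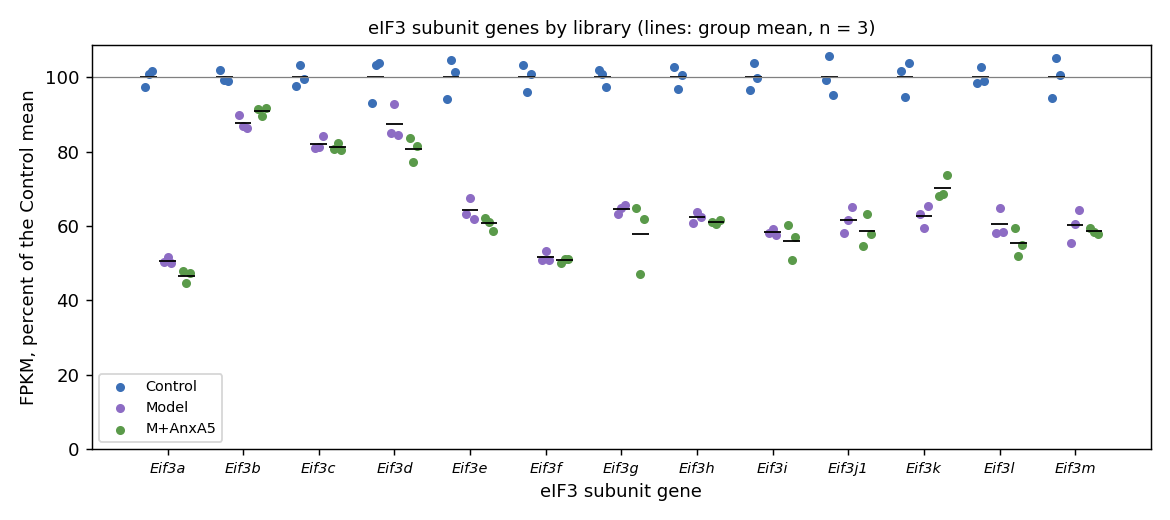
FPKM of the 13 tested eIF3 subunit genes in every library as a percentage of that gene's Control mean (points: libraries; lines: group means, n = 3). Eif3b, Eif3c and Eif3d stay above 80% of Control in the Model mean, and the other 10 subunits lie between 50.7% and 64.5%.

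The start site of Eif3f is shown because mRNAs that begin with a run of pyrimidines (5′ TOP mRNAs, the class to which ribosomal protein mRNAs belong) are known targets of mTORC1 and of Larp1. Of the 40 members with a promoter sequence in RefSeq (GRCm38.p6), 3 had an annotated start inside a run of C and T that went on for at least 5 bases from the start, which is 7.5% of these members and 5.28% of all 27025 genes with a promoter there. Apart from Eif2c5, which was listed at 0, these were Eif3f and Eif2s3x. In the windows below, 30 bases on the gene's strand with the start at the fifteenth base, the run is in capitals; it is a description of the sequence and shows no regulation.
Eif3f, chr7:108934401-108934430, plus strand: ctgttctaggCTCTCTCTCTTTCTCggcaa
Eif2s3x, chrX:94212636-94212665, minus strand: tgccgagcaTTTTCCTTTTCTCTCCgagca

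The genes of eIF2, the trimer that carries initiator tRNA, changed unevenly. Their summed level was 73.0 ± 2.75 FPKM in Control and 53.9 ± 0.589 FPKM in Model. Eif2s1, the α subunit that the eIF2 kinases phosphorylate, averaged 17.7 ± 1.21 FPKM in Control and 17.2 ± 0.658 FPKM in Model, and its 95% interval of -0.16 to 0.09 lay within 1.2-fold. Eif2s2 (β) went from 14.5 ± 0.474 to 11.7 ± 0.127 FPKM and fell by 0.29, a call that none of the other 4 scalings kept. The γ subunit has a gene on each sex chromosome. Eif2s3x was at 23.3, 25.8 and 26.0 FPKM in Control and 16.3, 17.6 and 17.8 FPKM in Model (-0.51 ± 0.06, adjusted p = 3.1e-05), with 33.7% of its windows shared with the predicted gene Gm2223. Eif2s3y was at 16.1, 15.4 and 15.6 FPKM in Control and 7.38, 7.57 and 8.42 FPKM in Model (-0.93 ± 0.06, adjusted p = 4.1e-07). The Y-linked copy thus made up 38.6 ± 2.01% of the summed FPKM of both γ genes in Control and 31.2 ± 0.996% in Model, with no overlap between the libraries. The windows that Eif2s3x shares with Gm2223 leave this share uncertain.

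The alternative factors of initiator tRNA delivery fell. Eif2a, which is a separate protein and not a subunit of eIF2, was at 9.68, 9.62 and 9.43 FPKM in Control, 4.30, 4.83 and 4.92 FPKM in Model and 4.25, 4.12 and 4.23 FPKM in M+AnxA5. It fell by 0.90 ± 0.05 in Model (adjusted p = 4.3e-07). Serp1, an abundant gene, overlaps Eif2a on the opposite strand. The libraries mark the strand, but no source states that the counting used it. Genes on the opposite strand also overlap Eif4enif1 (Drg1), Eif1ad (Banf1), Eif2b4 (Snx17), Eif3j1 (Spg11), Eif4a2 (Rfc4) and Eif5b (Rev1). Eif2d (ligatin), which can deliver tRNA without GTP and takes part in recycling, averaged 2.14 ± 0.224 FPKM in Control and 1.21 ± 0.0312 FPKM in Model. Its fall of 0.50 was called with the deposited values and under 3 of the other 4 scalings, and it overlaps Rassf5 on the opposite strand.

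eIF2B recycles eIF2 by exchanging its GDP for GTP, and phosphorylated eIF2 blocks this step. Its 5 subunit genes summed to 40.1 ± 0.837 FPKM in Control and 32.9 ± 0.346 FPKM in Model. Eif2b1, Eif2b3 and Eif2b4 fell by 0.44, 0.35 and 0.35, while Eif2b2 (-0.25) and Eif2b5 (-0.12), the catalytic subunit, were not called. Eif2b3 averaged only 1.52 ± 0.284 FPKM in Control and 0.972 ± 0.143 FPKM in Model, a level at which the log2(FPKM + 1) scale understates the fold change. None of the 5 was called with upper-quartile scaling or quantile normalization, where their median was -0.14 and 0.08.

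The factors of start codon selection and subunit joining were divided. Eif1, which keeps the scanning ribosome open until a start codon is met, was at 80.7, 75.2 and 72.9 FPKM in Control and 79.8, 83.3 and 85.1 FPKM in Model, groups that overlap (0.12, adjusted p = 0.042), and it was called higher with upper-quartile scaling (0.37). Its paralogue Eif1b was at 25.6, 26.3 and 25.6 FPKM in Control and 20.6, 17.9 and 20.4 FPKM in Model and fell by 0.38 ± 0.06 (adjusted p = 0.00022), a call that upper-quartile scaling did not keep. Eif1b thereby went from 25.3 ± 1.06% to 19.2 ± 1.45% of their summed FPKM. Eif5, which triggers GTP hydrolysis by eIF2 once the start codon is found, averaged 28.5 ± 3.21 FPKM in Control and 28.1 ± 0.440 FPKM in Model, a difference of -0.02. Eif5b, the GTPase that joins the large subunit, fell from 19.5 ± 0.469 to 15.4 ± 0.808 FPKM (-0.32, adjusted p = 0.00017) and was called neither after TPM scaling (-0.24) nor under upper-quartile or quantile scaling. Eif1ad, a relative of eIF1A, was at 8.93, 9.11 and 8.46 FPKM in Control and 5.86, 6.30 and 6.15 FPKM in Model (-0.47 ± 0.06, adjusted p = 9.6e-05), with no call under upper-quartile or quantile scaling.

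Eif1a and Eif1ax both encode eIF1A, which promotes scanning together with eIF1. Eif1ax was at 10.5, 12.7 and 11.8 FPKM in Control and 7.78, 8.61 and 7.65 FPKM in Model and fell by 0.49 ± 0.07 (adjusted p = 0.00017), with no call under upper-quartile or quantile scaling. Eif1a was at 22, 23.2 and 21.5 FPKM in Control, 9.78, 9.65 and 30.3 FPKM in Model and 10.8, 9.61 and 10.7 FPKM in M+AnxA5. Model replicate 3 thus lay above all Control libraries and the other 5 stimulated libraries far below them. With all libraries the difference was -0.60 and not called (adjusted p = 0.14). Without Model replicate 3 it was -1.12 (adjusted p = 1.6e-06), and the difference of M+AnxA5 from Control was -1.03 (adjusted p = 0.023).

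Eif6 was, beside Eif4ebp1, the other member called higher with the deposited values. eIF6 binds the large ribosomal subunit and keeps it from joining the small subunit before it is needed, and it also serves in the assembly of that subunit. Its gene (ENSMUSG00000027613, chr2:155819832-155826925, minus strand) was at 22.8, 20.8 and 19.7 FPKM in Control, 39.1, 37.6 and 40.2 FPKM in Model and 41.2, 36.0 and 40.2 FPKM in M+AnxA5. The log2 fold change in Model was 0.86 ± 0.07 (adjusted p = 2.7e-06), and under the 5 scalings it lay between 0.86 and 1.10.

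eIF5A, the only protein that carries the modified lysine hypusine, eases initiation, elongation and termination, and Eif5a had the highest mean level of all members. Eif5a was at 152, 136 and 118 FPKM in Control, 147, 141 and 147 FPKM in Model and 152, 153 and 159 FPKM in M+AnxA5. Control varied most, the groups overlapped, and the difference in Model was 0.11 (adjusted p = 0.24), or 0.36 and called with upper-quartile scaling. Eif5a2, its minor paralogue, was at 3.71, 4.34 and 3.83 FPKM in Control and 1.49, 1.51 and 1.69 FPKM in Model (-0.95 ± 0.07, adjusted p = 1.4e-06). Its share of the pair went from 2.87 ± 0.427% to 1.07 ± 0.0647%.

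The promoters of Eif5a, Eif5a2 and several other members hold the E-box that factors of the MYC family bind, and several initiation factor genes are known MYC targets. The letters CACGTG (the same on both strands) were found within the 250 bases before and 50 bases after an annotated start in 10 of the 40 members with a RefSeq promoter, or 25%, and in 8.09% of all 27025 genes. These were Eif1b, Eif3a, Eif3f, Eif3k, Eif4a1, Eif4e, Eif4g1, Eif4h, Eif5a and Eif5a2. They included members that fell by 0.93 to 0.96 (Eif3a, Eif3f and Eif5a2) and members whose estimate lay within 1.2-fold of Control (Eif4e, Eif4h and Eif5a). The core of the interferon-stimulated element, on either strand, was in 3 of the 40 (7.5% beside 3.99% of all genes). The κB site was searched only as an exact sequence, without its variants. Neither that sequence nor the cAMP response element TGACGTCA was in any of these windows of the 40 members. Among all genes they were in only 0.174% and 2.03%. With shares this low, the lack of a match among 40 members does not set them apart from all genes. Promoters of Eif4ebp1, Eif6 and 10 other members were not used here. Of the E-boxes upstream of the start, 6 are printed with 12 bases on each side and the E-box in capitals. The E-box was the most frequent of the 4 motifs searched, among the members and also among all genes. For each motif a gene counted if any of its annotated starts had a match. All genes were not matched to the members for level or for number of starts. A match is a description of the letters and not a bound site.
Eif3f, chr7:108934335-108934364, plus strand: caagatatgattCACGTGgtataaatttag
Eif3k, chr7:28981915-28981944, minus strand: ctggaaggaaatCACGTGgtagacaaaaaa
Eif5a2, chr3:28781148-28781177, plus strand: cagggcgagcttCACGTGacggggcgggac
Eif4g1, chr16:20672661-20672690, plus strand: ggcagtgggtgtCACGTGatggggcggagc
Eif4e, chr3:138527192-138527221, plus strand: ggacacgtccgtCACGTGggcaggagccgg
Eif5a, chr11:69921443-69921472, minus strand: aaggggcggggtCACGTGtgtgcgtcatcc

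The comparison of M+AnxA5 with Model asks what AnxA5 changed in stimulated cells. No member was called (0 of 48, limma), where 2.76% of all genes were, 1.95% higher and 0.815% lower. At an unadjusted p under 0.05 there were 7 of the 48 members and 1985 of the 11657 genes. Their median difference was -0.06 beside -0.02 for all genes, and 33 of the 48 differences were smaller than 0.1. The 95% interval lay within 1.2-fold for 36 of the 48 members and within 1.5-fold for 46. The intervals of Eif4e and Eif1a, the members with a library that stood apart, reached past 1.5-fold.

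**Figure D5:**
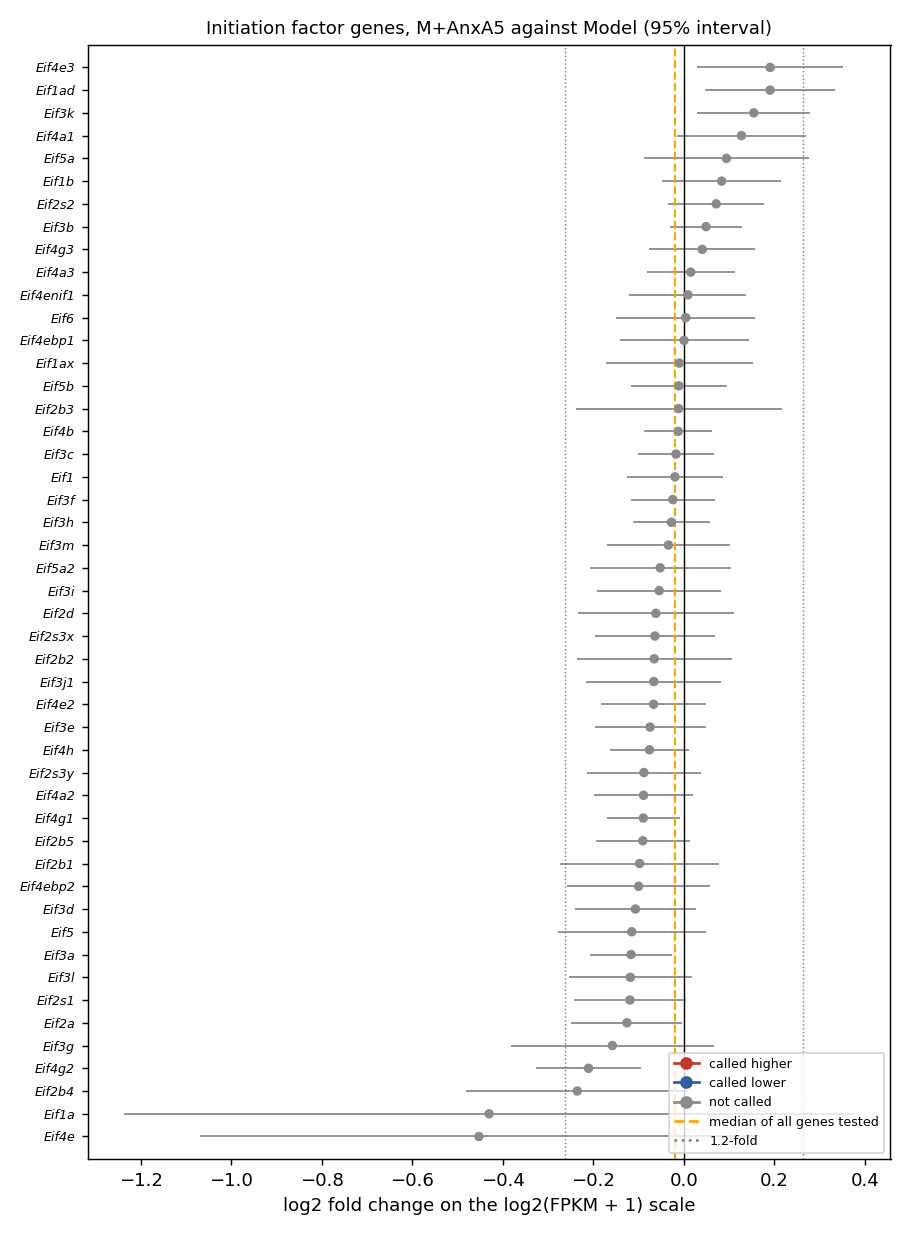
Log2 fold change of each of the 48 tested initiation factor genes in M+AnxA5 against Model on the log2(FPKM + 1) scale, with its 95% interval (3 libraries a group). No member is called, 36 intervals lie within the dotted lines at 1.2-fold, and those of Eif4e and Eif1a are the widest.

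The 6 members with the lowest p in this comparison were Eif4g2, Eif1ad, Eif3a, Eif3k, Eif4e3 and Eif4g1. Eif4g2 had the lowest: 79.8, 79.5 and 71.2 FPKM in Model and 67.0, 65.3 and 66.2 FPKM in M+AnxA5, with no overlap and a difference of -0.21 ± 0.05 (adjusted p = 0.070). Without Model replicate 3 the difference of Eif4g2 was -0.26 and was called (adjusted p = 0.033). Eif4g2 in M+AnxA5 overlapped Control, with a difference of -0.06 from it. Eif3a and Eif4g1, lower in Model than in Control, had differences of -0.12 and -0.09 in M+AnxA5 (adjusted p = 0.18 and 0.24). Eif4e3, Eif1ad and Eif3k, also lower in Model than in Control, differed by 0.19, 0.19 and 0.15 in the other direction (adjusted p = 0.21, 0.16 and 0.19). Eif4e3 was at 5.02, 5.41 and 5.26 FPKM in Model and 6.19, 6.67 and 5.51 FPKM in M+AnxA5, Eif1ad at 5.86, 6.30 and 6.15 FPKM and 7.74, 6.55 and 7.08 FPKM, and Eif3k at 18, 16.9 and 18.6 FPKM and 19.4, 19.5 and 21 FPKM. The libraries of both groups did not overlap for any of these 6, as for 16 of the 48 members and for 24.8% of all genes. Eif4ebp1 and Eif6, the members raised by the stimulus, differed by 0.00 between M+AnxA5 and Model, with 95% intervals of -0.14 to 0.14 and -0.15 to 0.16.

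In M+AnxA5 against Control, the same Control libraries being used, Eif4ebp1 (1.06) and Eif6 (0.86) were again higher and 35 members were lower, beside 77.5% of all genes called (16.4% higher and 61.1% lower). The lowest were Eif4ebp2 (-1.53), Eif4b (-1.44) and Eif3a (-1.07), and 12 of the 13 eIF3 subunits were called lower.

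The proteins that act on these factors were examined through lists of partner genes, given as counts beside the all-gene background above. Of the 4 eIF2 kinases, Eif2ak2 (PKR, which senses double-stranded RNA and is induced by interferon) was at 13.0, 13.2 and 13.4 FPKM in Control and 55.6, 53.4 and 55.8 FPKM in Model, a log2 fold change of 1.98 ± 0.04 (adjusted p = 5.8e-10). The other three fell: Eif2ak3 (PERK, the sensor of the endoplasmic reticulum) by 1.37, Eif2ak4 (GCN2, the sensor of uncharged tRNA) by 0.81 and Eif2ak1 (HRI, the haem-regulated kinase) by 0.30, the last of which was called only with the deposited values. The summed level of the 4 was 37.2 to 38.2 FPKM in Control and 68.2 to 71.3 FPKM in Model. Of 7 tested genes acting around phosphorylated eIF2, 3 were higher and 2 lower: Ppp1r15b and Ppp1r15a, which bring a phosphatase to eIF2, had log2 fold changes of 1.5 and 0.94, and Dnajc3 and Nck1 fell by 1.37 and 0.65. The remaining higher gene, Atf4 (0.27), was named after its values were seen. Ppp1r15a was at 10.9 FPKM in Control replicate 1 and 5.99 and 5.59 FPKM in the other two.

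Among 16 partners of the cap complex and the poly(A)-binding protein, 3 were higher and 10 lower. Larp1, which binds the cap and start of TOP mRNAs, was at 25.1, 27.2 and 25.5 FPKM in Control and 68.2, 64.3 and 65.0 FPKM in Model (1.31 ± 0.05, adjusted p = 1.6e-08). Pdcd4, an inhibitor of eIF4A, fell by 1.88, from 5.44 ± 0.267 to 0.745 ± 0.0887 FPKM. Mknk2, a kinase of eIF4E, fell by 1.42, and Ddx3x, an RNA helicase of initiation, by 1.06. Cyfip1, an eIF4E partner in translational repression, was the only gene of the initiation partner lists called in M+AnxA5 against Model, where 2.76% of all genes were called. Its difference was -0.32 ± 0.04 (limma, adjusted p = 0.0069), at 44.0, 44.5 and 45.1 FPKM in Model and 36.8, 35.3 and 34.5 FPKM in M+AnxA5. It was higher in Model than in Control by 0.53, where it was at 29.2, 30.8 and 31.7 FPKM.

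Of 7 tested partners in ribosome loading and recycling, 5 were lower and 1 higher. Denr rose by 0.46 while Mcts1, whose protein forms a heterodimer with DENR, fell by 0.90, and Abce1, the recycling ATPase, and Rack1, a small-subunit protein, fell by 0.77 and 0.72. Of the enzymes that make hypusine on eIF5A, Dohh fell by 0.31, a call that 3 of the other 4 scalings did not keep, and Dhps showed a difference of 0.06 (adjusted p = 0.63), and under upper-quartile and quantile scaling Dhps was called higher (0.29 and 0.40). The mitochondrial initiation factors Mtif2 and Mtif3 fell by 0.70 and 0.37, the latter uncalled under upper-quartile and quantile scaling. Of 10 genes of the mTORC1 arm, which controls the 4E-BPs, 6 were lower and none higher, beside 60.3% and 16.5% of all genes. The count of lower genes was thus near the share of all genes. The falls included 0.80 for Rps6, 0.63 for Tsc1, 0.48 for Tsc2 and 0.44 for Rps6kb2. Only 1 of the 10 was lower under quantile normalization. Mtor itself differed by 0.07 and was called higher under upper-quartile and quantile scaling (0.29 and 0.45).

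The rest of the translation machinery gave the setting. Of 80 cytosolic ribosomal protein genes, 76 were lower in Model and none was higher, at a median of -0.94, and between 73 and 78 were lower under the other 4 scalings, with 1 higher under upper-quartile scaling. Rpl3, Rpl12 and Rpl4 fell by 1.22, 1.12 and 1.08, and Rps4x by 1.11. Of 9 tested elongation and release factors 7 were lower, led by Eef2 (-0.91), Eef1a1 (-0.76), Eef1b2 (-0.98) and Eef2k (-1.60), the kinase that inhibits eEF2. Of 20 aminoacyl-tRNA synthetases 14 were lower and 3 higher. Wars (tryptophan, interferon-induced) and Rars (arginine) rose by 1.48 and 0.63, and Iars (isoleucine) and Qars (glutamine) fell by 1.23 and 0.80. The median of the eIF3 subunits, -0.65, thus lay between those of the ribosomal proteins and of all genes, and no list in this paragraph had a member called in M+AnxA5 against Model.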

How the data were processed

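The 9 libraries of mouse BMDM RNA, 3 per group by the sample labels, were analysed. The authors deposited FPKM per gene and library, computed by a sequencing company from poly(A) libraries. In the submitters' processing notes the names cutadapt (1.9), STAR, StringTie (2.1.6), edgeR, DESeq2 and mm10 appear without role or order. No count test was run on these FPKM, because only 13.5% to 20.8% of low values lay within 3% of a whole number of fragments. No column of per-sample values was left unused.

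The 11657 genes that reached 1 FPKM in 3 or more libraries entered a limma model (version 3.58.1, R 4.3.3) on log2(FPKM + 1), with all 9 libraries in the fit, no replicate block, a trended empirical Bayes step and Benjamini-Hochberg adjustment. Fold changes on this scale understate those of low genes. The model was checked on simulated data. Paralogue shares were computed within each library. Shared sequence was counted as 100-base windows of GENCODE M21 transcripts (GRCm38) that occur exactly in another gene. Other pseudocounts, filters, scalings, fits and thresholds were tried.

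Members and lists were chosen with earlier results of these data known. Values by library are given for the called members that averaged 5 FPKM or more in a group and had the most extreme changes in Model (up to 8 in each direction, no overlap), the 6 members with the lowest p for AnxA5, the 4 most abundant members and the paralogue groups, and for some others after their values were seen. Of each partner list, up to 4 called genes with the lowest adjusted p in each comparison are named, and every gene of lists of 4 or fewer; Mtor was named after its values were seen.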

Additional observations from a re-analysis of the deposited data

How the results depend on the processing

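Alternatives changed the pseudocount, the filter on low values, the scaling, the empirical Bayes settings, the libraries in the fit and the fold threshold. Of the scalings, upper-quartile scaling changed the members called most, to 5 higher and 19 lower in Model against Control and 4 higher and 21 lower in M+AnxA5 against Control; quantile normalization gave 2 and 24 in both, and 58.8% instead of 78.5% of all calls in Model against Control were then lower. With no fold threshold 4 members were higher in Model. With a fold over 1.5 there were 18 calls in Model against Control, 16 of them lower, and 17 in M+AnxA5 against Control, 15 of them lower. Leaving out 1 library at a time gave 33 to 36 calls in Model against Control (2 to 2 higher, 31 to 34 lower), 35 to 38 in M+AnxA5 against Control (2 to 3 higher, 33 to 36 lower) and 0 to 1 in M+AnxA5 against Model (0 to 0 higher, 0 to 1 lower), where the 1 call was Eif4g2 without Model replicate 3. Of the members called, 4 turned to small uncalled differences above 0 under quantile normalization: Eif2b3 (from -0.35 to 0.10) and Eif2b4 (from -0.35 to 0.08) in Model against Control, and Eif1ad (from -0.28 to 0.075), Eif2b3 (from -0.36 to 0.08) and Eif2b2 (from -0.32 to 0.02) in M+AnxA5 against Control. The causes were not tested, beyond what the fold thresholds set by construction. Of the other alternatives, none moved a count of members called by over 1.5 times.

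The replicate numbers were not taken as a pairing, since no source states one and only 3 of the 9 same-numbered pairs correlated over 0.1 (range 0.016 to 0.21). All 9 were above 0, a hint from the data, and 7 of the 9 libraries lay closest to their own number in both other groups. With a replicate block the calls stayed at 2 higher and 33 lower, 0, and 2 higher and 35 lower in the 3 comparisons, while all genes called in M+AnxA5 against Model went from 322 to 185. Without the 3 libraries numbered 2 that count was 11, and the members called were 2 higher and 30 lower, 0, and 2 higher and 32 lower. Depth is only estimated from the values.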
